A study of Sus scrofa with 12 samples.

Results

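Genes of lipid droplets and triglyceride turnover were followed in the liver of Jinhua (JH) and Landrace (LD) pigs: the droplet coat genes HSD17B13, PLIN2, PLIN3, PLIN5, CIDEB and CIDEC, the lipase family genes PNPLA2 and PNPLA3, and the last enzymes of triglyceride synthesis, DGAT1 and DGAT2. These 10 genes were chosen by gene symbol from 31694 genes listed in each library. Of them, 6 were listed under their own symbol, 3 under an older symbol (PLIN5 as LSDP5, CIDEB as CIDE-B and DGAT1 as DGAT) and 1, PNPLA3, under its NCBI gene ID. The labels give 3 JH pigs and 3 LD pigs of 70 days of age, each with 1 liver mRNA library, and the pigs were uncastrated males by the methods of the study. JH is a slow-growing Chinese breed that lays down much fat, LD is a fast-growing lean breed and served as the control group, and the labels name no drug or diet. With a single age, sex and tissue, breed cannot be told apart from anything else that differed between these animals, such as body size, feeding or housing.

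Hepatocytes store surplus fatty acids as triglyceride in lipid droplets, a core of neutral lipid wrapped in a single phospholipid layer and a coat of proteins. The DGAT enzymes make the triglyceride, coat proteins of the perilipin (PLIN) and CIDE families decide how droplets are shielded and how they grow, and lipases such as PNPLA2 release the fatty acids again. Liver can also load droplet triglyceride onto very low density lipoprotein for export.

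None of the 8 genes that could be tested passed the limits for a differentially expressed gene (DEG), an adjusted p below 0.05 together with an absolute log2 fold change above 1 in limma, against 2.39% of the 12993 genes tested (1.02% higher and 1.36% lower in JH). The voom method of limma on recovered reads called 1 of the 8, HSD17B13, against 3.14% of all genes tested there. Of the 5 coat genes with values, 4 nevertheless lay apart between the breeds in these 6 pigs. All JH pigs had less HSD17B13 than any LD pig, with a log2 fold change (JH over LD throughout) of -2.23 (standard error 0.55), while PLIN2, PLIN5 and CIDEB were higher in every JH pig, with 2.04 (standard error 0.82), 1.64 (standard error 0.43) and 1.03 (standard error 0.31). PNPLA2, DGAT1, DGAT2 and CIDEC overlapped between the breeds. At an unadjusted p under 0.05, 4 of the 8 genes differed, 3 higher and 1 lower in JH, beside 17.9% of all genes tested (8.35% higher and 9.51% lower). The ranges of the breeds did not overlap in the same 4 genes, beside 23.4% of all genes tested. The median log2 fold change was 0.47 over the 8 genes and 0.04 over all genes tested.

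Expression was deposited as RPKM, the reads of a gene scaled to its length and to the reads of the library. The totals behind these values, recovered from the steps between low values, were 5744909 to 7914514 reads per library, and the reads of the 8 genes ranged from 51 to 14544 per library. These totals are smaller than the clean read numbers that the study reports for the same libraries. Which reads they hold was not tested. Fold changes are on the scale of log2(RPKM + 0.1), which understates the change of low genes. The livers carried their defining transcript, with ALB (albumin) at 27533 to 33599 RPKM in JH and 37742 to 53893 RPKM in LD. RN18S, the 18S ribosomal RNA gene, ranged from 1570 RPKM in JH2 to 62257 RPKM in JH3 and stood at 20160 RPKM in LD3. The median log2(RPKM + 0.1) of all genes tested was 2.10 in both JH3 and LD3 and between 2.35 and 2.42 in the other libraries. These samples are bulk liver, so fewer cells of a type and less RNA per cell cannot be told apart.

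**Figure D1:**
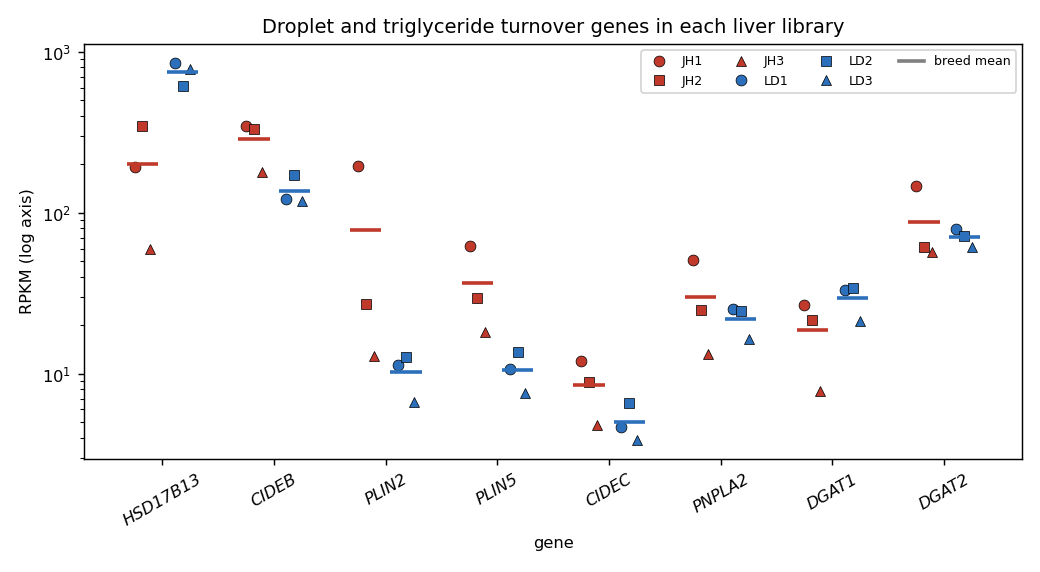
RPKM (log axis) of the 8 genes with values above 0, with 1 symbol per library, JH in red and LD in blue, and a bar at the mean of each breed. HSD17B13 lies lower in all 3 JH libraries, PLIN2, PLIN5 and CIDEB lie higher in all 3, and the other 4 genes overlap between the breeds.

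HSD17B13, a hydroxysteroid dehydrogenase family member that sits on liver lipid droplets, was the most abundant of the 8 genes in LD. Its expression was 854, 610 and 786 RPKM in LD1, LD2 and LD3, against 193, 348 and 59.4 RPKM in JH1, JH2 and JH3. The LD pigs were close to each other, the JH pigs differed by 5.86-fold among themselves, and the highest JH value was still below the lowest LD value. The means were 750 ± 126 RPKM (SD, n = 3) among LD pigs and 200 ± 144 RPKM (SD, n = 3) among JH pigs. LD was higher by 4.68-fold in limma (unadjusted p = 0.00264, Benjamini-Hochberg adjusted p = 0.0754 in limma). With 3 pigs against 3 the two-sided exact permutation test cannot fall below p = 0.1, and HSD17B13, PLIN2, PLIN5 and CIDEB each reached this value. HSD17B13 was called without JH2 (log2 fold change -2.79, adjusted p = 0.0355 from limma) and without JH3 (-1.52, adjusted p = 0.042), and with limma's voom on the recovered reads (-2.23, adjusted p = 0.0325). Over all alternatives its adjusted p in limma lay between 0.0325 and 0.217.

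The other coat genes with values had log2 fold changes above 0. PLIN2, the perilipin found on nearly all liver droplets and stabilised by the lipid it covers, was at 195, 27.0 and 12.9 RPKM in JH1, JH2 and JH3, against 11.3, 12.6 and 6.72 RPKM in LD1, LD2 and LD3. A single pig, JH1, carried most of this difference, and JH3 exceeded LD2 by only a small margin. The means were 78.2 ± 101 RPKM (SD, n = 3) among JH pigs and 10.2 ± 3.10 RPKM (SD, n = 3) among LD pigs, so the SD in JH was larger than the difference between the breeds. The log2 fold change of 2.04 missed the limit in limma (adjusted p = 0.236), and without JH1 it was 0.91 (adjusted p = 0.363).

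PLIN5, a perilipin of oxidative tissues that tethers droplets to mitochondria and binds PNPLA2, was at 62.6, 29.4 and 18.3 RPKM in JH1, JH2 and JH3. The LD values were 10.7, 13.6 and 7.54 RPKM in LD1, LD2 and LD3. All JH pigs lay above all LD pigs. The JH mean was 36.8 ± 23.1 (SD, n = 3) RPKM and the LD mean 10.6 ± 3.03 (SD, n = 3) RPKM, 3.11-fold higher in JH on the fitted scale (95% confidence interval 1.58 to 6.10, unadjusted p = 0.00408, adjusted p = 0.0939 from limma). Without JH3 the log2 fold change was 2.05 and PLIN5 was called (adjusted p = 0.036 from limma, between 0.036 and 0.25 over all alternatives).

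The CIDE proteins gather at contact sites between droplets, and CIDEB, the member typical of liver, takes part in loading lipid onto very low density lipoprotein. CIDEB was at 347, 333 and 179 RPKM in JH1, JH2 and JH3, against 121, 171 and 119 RPKM in LD1, LD2 and LD3. JH1 and JH2 were far above every LD pig, and JH3 was just above LD2. The means were 287 ± 93.1 RPKM (SD, n = 3) among JH pigs and 137 ± 29.3 RPKM (SD, n = 3) among LD pigs. On the fitted scale CIDEB was 2.04-fold higher in JH (95% confidence interval 1.25 to 3.33, unadjusted p = 0.00942, adjusted p = 0.136 from limma). CIDEB was called without JH3 (log2 fold change 1.33, adjusted p = 0.0355 from limma, between 0.0355 and 0.348 over all alternatives).

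CIDEC, the CIDE member that fuses droplets in fat cells and in fatty liver, was the least abundant of the 8 genes, with 12.0, 8.88 and 4.80 RPKM in JH1, JH2 and JH3 and 4.64, 6.60 and 3.86 RPKM in LD1, LD2 and LD3. JH3 lay within the LD range. The log2 fold change was 0.69 (95% confidence interval -0.13 to 1.52, adjusted p = 0.361 from limma), on 51 to 115 reads per library. CIDEB exceeded CIDEC within every library, by 29.0-fold to 37.5-fold in JH and by 25.8-fold to 30.7-fold in LD, and these ranges overlapped. The ratio of PLIN2 to PLIN5 was between 0.89 and 1.05 in LD and between 0.71 and 3.11 in JH, where the highest value belonged to JH1.

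By RefSeq gene models (Sscrofa11.1), CIDEB overlaps NOP9 and LTB4R2, DGAT1 overlaps HSF1, and PLIN2 and CIDEC each overlap 1 uncharacterised gene. The files use an earlier assembly, and whether the counting used strand is not given in the sources used here, so reads in such overlaps cannot be told apart. NOP9 was at 10.9 to 16.1 RPKM in JH and 6.53 to 10.02 RPKM in LD (log2 fold change 0.77, adjusted p = 0.182 from limma), in the same direction as CIDEB and at a far lower level. HSF1 had a log2 fold change of 0.50 (adjusted p = 0.486), LTB4R2 of 0.09 (adjusted p = 0.932), and LOC100737553, which overlaps PLIN2, of 0.02 (adjusted p = 0.983).

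**Figure D2:**
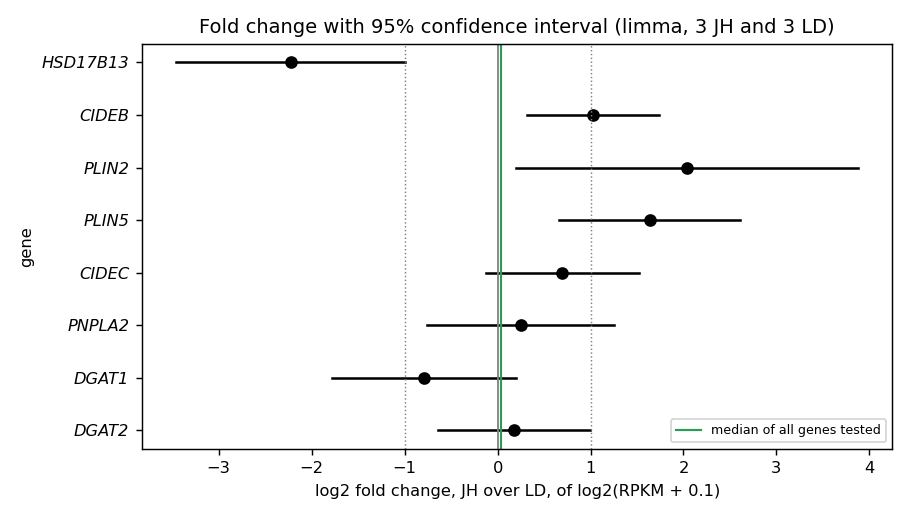
Log2 fold changes of JH over LD for the 8 genes (points) with 95% confidence intervals from limma (bars, 3 JH and 3 LD), dotted lines at 1 and -1 and a green line at the median of all genes tested. The intervals of HSD17B13, PLIN2, PLIN5 and CIDEB exclude 0, although none of these genes passed after adjustment over all 12993 genes, and those of CIDEC, PNPLA2, DGAT1 and DGAT2 include 0.

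Levels of the 5 measured coat genes were also set against each other within a library. This sum over genes was added after the values were seen and carries no test. HSD17B13 accounted for 85.2%, 75.0% and 85.2% of the summed RPKM of the 5 measured coat genes in LD1, LD2 and LD3, and for 23.8%, 46.6% and 21.6% in JH1, JH2 and JH3. CIDEB took 42.9% to 65.3% in JH and 12.1% to 21.0% in LD, and was the largest or second largest share in every library. PLIN2 reached 24.1% in JH1 and stayed between 0.728% and 4.69% in the other 5 libraries. The 4 coat genes without HSD17B13 summed to 215 to 617 RPKM in JH and to 137 to 203 RPKM in LD. With HSD17B13 included the order was the other way round, with 275 to 810 RPKM in JH and 814 to 1002 RPKM in LD. A share within a library does not depend on how libraries were scaled, but it does depend on the gene lengths used for RPKM.

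**Figure D3:**
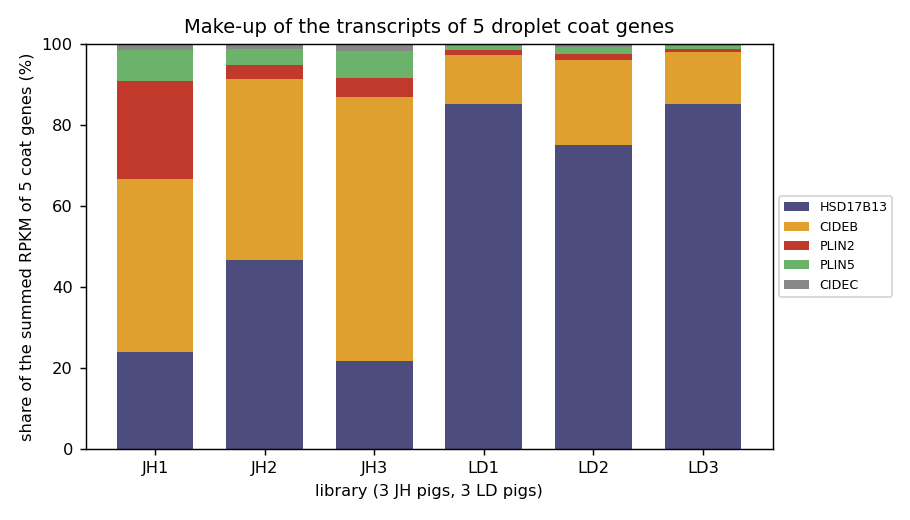
Share of each coat gene in the summed RPKM of HSD17B13, CIDEB, PLIN2, PLIN5 and CIDEC (percent), 1 bar per library. HSD17B13 fills 75.0% to 85.2% of the LD bars and 21.6% to 46.6% of the JH bars, where CIDEB is the largest or second largest part.

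Of the lipolysis genes, PNPLA2 (adipose triglyceride lipase) takes the first fatty acid off a triglyceride. It was at 51.1, 25.1 and 13.3 RPKM in JH1, JH2 and JH3, and at 25.3, 24.5 and 16.4 RPKM in LD1, LD2 and LD3. JH pigs lay on both sides of the LD pigs. The log2 fold change was 0.25 (95% confidence interval -0.75 to 1.25, adjusted p = 0.812 from limma) and turned to -0.25 without JH1.

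For triglyceride synthesis, DGAT1 works mainly on fatty acids taken up or released again, and DGAT2 mainly on newly made ones. DGAT1 was at 26.8, 21.4 and 7.87 RPKM in JH1, JH2 and JH3, against 33.0, 34.0 and 21.1 RPKM in LD1, LD2 and LD3. The JH values overlapped the LD values only through LD3. The log2 fold change of -0.79 (95% confidence interval -1.78 to 0.20, adjusted p = 0.385 from limma) was -0.26 without JH3. DGAT2 was at 146, 61.0 and 56.9 RPKM in JH1, JH2 and JH3, and at 79.6, 71.3 and 61.7 RPKM in LD1, LD2 and LD3. JH1 was the highest of all 6 libraries and the other JH pigs were the lowest, and the log2 fold change of 0.18 (95% confidence interval -0.64 to 1.00, adjusted p = 0.834) turned to -0.26 without JH1. DGAT2 stood above DGAT1 in every library, by 2.09-fold to 2.92-fold in LD and 2.85-fold to 7.24-fold in JH, and the ranges met between JH2 and LD3. The DGAT2 values rest on a recovered gene length of only 336 bases, so its level against other genes depends on that short gene model.

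PLIN3, a perilipin that moves from the cytosol onto new droplets, and PNPLA3, a droplet protein related to PNPLA2, were listed at 0 in all 6 libraries. APOB and SREBF1, which liver uses, were also listed at 0 in all 6 libraries. A listed 0 in these files can therefore not be read as absence of the transcript, and no comparison was made for PLIN3 and PNPLA3.

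By mean RPKM the order in LD was HSD17B13, CIDEB, DGAT2, DGAT1, PNPLA2, PLIN5, PLIN2 and CIDEC. The ranges of neighbours in this order overlapped only between DGAT1 and PNPLA2 and between PLIN5 and PLIN2. In JH the order was CIDEB, HSD17B13, DGAT2, PLIN2, PLIN5, PNPLA2, DGAT1 and CIDEC, and each neighbour overlapped with the next. The spread among JH pigs was wide, with highest to lowest ratios from 1.94 for CIDEB to 15.1 for PLIN2, against 1.29 to 1.88 in LD. Over all genes tested the JH libraries were also slightly less alike, with correlations of 0.939 to 0.942 within JH and 0.948 to 0.953 within LD.

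JH1 was the highest JH library in 7 of the 8 genes, with HSD17B13 as the exception, and in 42.7% of all genes tested. JH3 was the lowest JH library in 8 of the 8 genes and in 55.8% of all genes tested, and LD3 the lowest LD library in 7 of 8 genes and in 56.5% of all genes. JH3 and LD3 were the libraries with the highest RN18S values. After each library was shifted to the same median, JH1 was still the highest JH library in 7 of 8 genes (37.9% of all genes), JH3 the lowest in 7 of 8 (36.4%) and LD3 the lowest in 5 of 8 (33.0%). The part of ribosomal RNA in these results was not tested. Under this scaling the log2 fold changes were -2.24 for HSD17B13 (adjusted p = 0.0552 from limma), 2.03 for PLIN2 (0.198), 1.63 for PLIN5 (0.058) and 1.02 for CIDEB (0.0654).

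**Figure D4:**
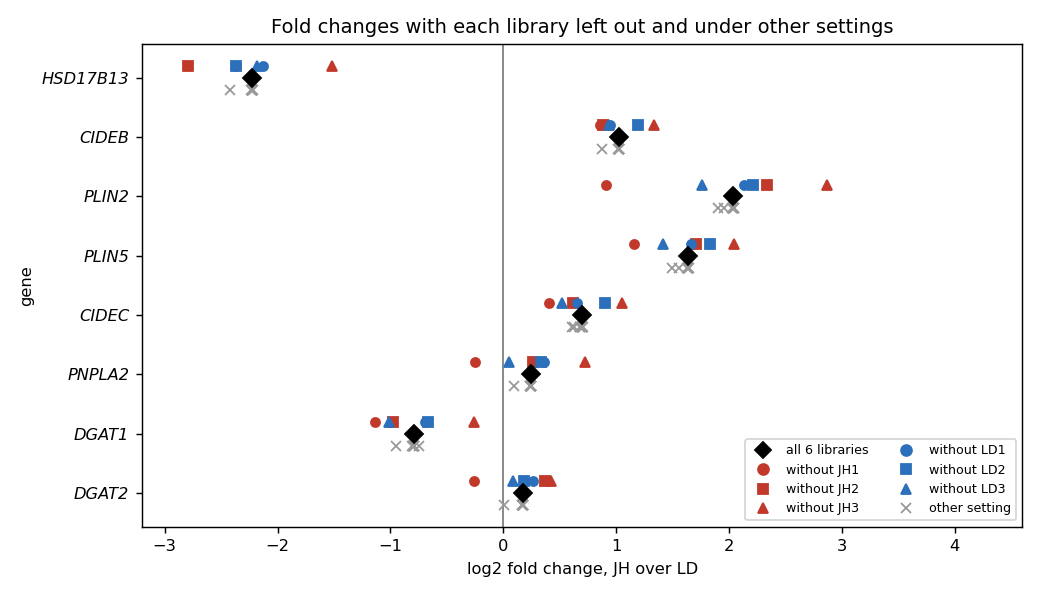
Log2 fold changes of JH over LD for the 8 genes with all 6 libraries (black diamonds), with each library left out (red for a JH library, blue for an LD library, shape by replicate) and under the other settings (grey crosses). The signs of HSD17B13, CIDEB, PLIN2, PLIN5, CIDEC and DGAT1 held at every point, PLIN2 moved from 2.04 to 0.91 without JH1, and PNPLA2 and DGAT2 crossed 0 without JH1.

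The other genes of triglyceride turnover were taken from lists written by role. Of 36 listed genes of synthesis, droplet biogenesis and lipolysis, 31 had a row and 27 were tested. Of the 27 genes, 1 was called, higher in JH, beside 2.39% of all genes tested called in either direction and 1.02% called higher. At an unadjusted p under 0.05, 6 of the 27 differed, all higher in JH, beside 17.9% of all genes tested in either direction and 8.35% higher, and 17 of 27 had a log2 fold change above 0 (52.9% of all genes). The median log2 fold change was 0.26.

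The gene called was G0S2, listed under its NCBI gene ID, whose protein binds PNPLA2 and blocks it. G0S2 was at 445, 238 and 164 RPKM in JH1, JH2 and JH3, against 47.9, 70.5 and 12.9 RPKM in LD1, LD2 and LD3. All JH pigs lay well above all LD pigs. G0S2 rose in JH by a log2 fold change of 2.88 (standard error 0.60, 95% confidence interval 1.53 to 4.22, adjusted p = 0.0445 from limma), close to the limit. With each library left out it stayed between 2.15 and 3.38 but was called only without JH3, with adjusted p up to 0.123 in limma. Over the other alternatives its adjusted p lay between 0.0154 and 0.0751. The ratio of G0S2 to PNPLA2 within a library, which was formed after the values were seen, was 8.71 to 12.4 in JH and 0.785 to 2.88 in LD.

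ABHD5, the co-activator that switches PNPLA2 on, was not called but lay in the same direction. ABHD5, UBXN8, HSD17B11, GPD1 and the ratios with PNPLA2 and HSD17B11 were chosen after their values were seen. ABHD5 was at 117, 82.3 and 43.6 RPKM in JH1, JH2 and JH3, and at 23.4, 17.0 and 32.0 RPKM in LD1, LD2 and LD3. The ranges did not overlap, with a log2 fold change of 1.68 ± 0.39 (standard error, limma adjusted p = 0.0608). Without JH3 ABHD5 was called (2.07, adjusted p = 0.0193), as it was with voom on the recovered reads (1.68, adjusted p = 0.0288), and over all alternatives the adjusted p in limma reached 0.202. The ratio of ABHD5 to PNPLA2 was 2.29 to 3.29 in JH and 0.694 to 1.95 in LD, so both the co-activator and the inhibitor stood higher relative to the lipase in JH. The other lipolysis gene at an unadjusted p under 0.05 was UBXN8, an adaptor of protein extraction from the endoplasmic reticulum, with 0.73 (adjusted p = 0.197). The lowest log2 fold change of this list was that of FAF2 with -0.15 (adjusted p = 0.779), and 9 of its 11 genes were tested.

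Of the droplet biogenesis list, 9 of 12 genes were tested, 0 were called by limma on RPKM or by voom, and 1 differed at an unadjusted p under 0.05 (17.9% of all genes tested). This gene was FITM1, a membrane protein that helps triglyceride gather into droplets and is known best from muscle. FITM1 was at 10.5, 3.65 and 2.49 RPKM in JH1, JH2 and JH3 against 1.12, 0.718 and 1.00 RPKM in LD1, LD2 and LD3. All JH values lay above all LD values, on 17 to 53 reads in JH and 5 to 7 reads in LD, and its log2 fold change was the largest of the list (2.18, adjusted p = 0.0553 from limma). PLIN1, the perilipin of fat cells, had the lowest log2 fold change with -0.66 (adjusted p = 0.643). HSD17B11, the nearest relative of HSD17B13, was at 62.1 to 76.5 RPKM in JH and 75.1 to 116 RPKM in LD (log2 fold change -0.41, adjusted p = 0.436). The ratio of HSD17B13 to HSD17B11 was 7.37 to 8.65 in LD and 0.832 to 5.61 in JH.

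Of the synthesis list, 9 of 13 genes were tested, 0 were called by limma on RPKM or by voom, and 2, LPIN3 and GPD1, differed at an unadjusted p under 0.05 (17.9% of all genes tested). LPIN3, a phosphatidate phosphatase, was at 3.98 to 8.58 RPKM in JH and 2.04 to 3.20 RPKM in LD, with the largest log2 fold change of this list (1.23, limma adjusted p = 0.107). Its paralogue LPIN1 had the lowest with -0.73 (adjusted p = 0.32). GPD1, which makes the glycerol 3-phosphate backbone, was at 433, 334 and 181 RPKM in JH1, JH2 and JH3 and at 150, 181 and 146 RPKM in LD1, LD2 and LD3, with 0.91 (adjusted p = 0.196). MTTP, which loads triglyceride onto lipoprotein, had a log2 fold change of 0.40 (adjusted p = 0.438) and was the only gene of secretion tested.

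**Figure D5:**
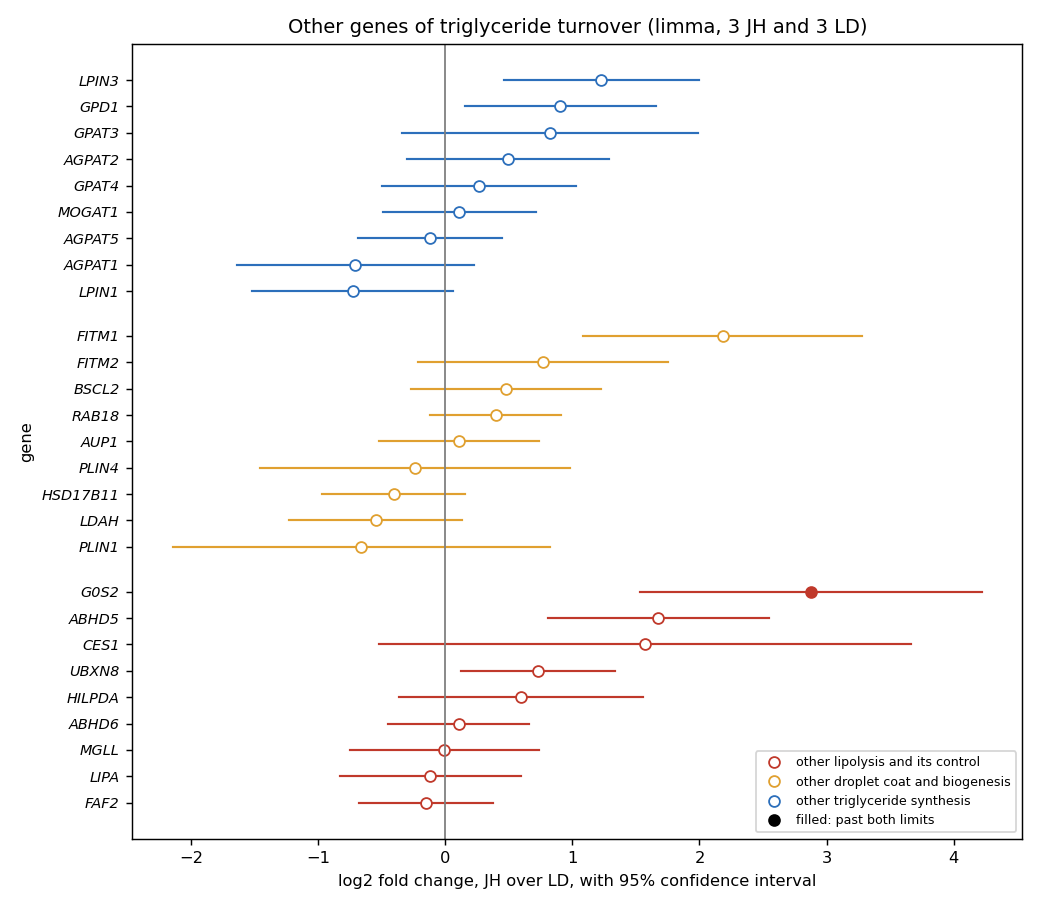
Log2 fold changes of JH over LD with 95% confidence intervals (limma, 3 JH and 3 LD) for 27 other genes of triglyceride turnover, grouped by role, with filled points for genes past both limits. Only the point of G0S2 (2.88) is filled, and the intervals of ABHD5, UBXN8, FITM1, LPIN3 and GPD1 also lie above 0.

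Of 6 transcription factors known to control such genes, 4 were tested, 0 were called by limma on RPKM or by voom, and 1, FOXO1, differed at an unadjusted p under 0.05 (17.9% of all genes tested). FOXO1, which turns on fasting genes when insulin is low, was at 5.76, 2.70 and 4.63 RPKM in JH1, JH2 and JH3 and at 8.37, 9.24 and 9.31 RPKM in LD1, LD2 and LD3. Its ranges did not overlap (log2 fold change -1.09, unadjusted p = 0.00576, adjusted p = 0.108 from limma). PPARA, the receptor of fatty acid oxidation, had the highest log2 fold change with 0.37 (adjusted p = 0.652). PPARG was near 0, with at most 0.341 RPKM.

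Markers of cell types were summed per library, and those named here without a call were chosen after their values were seen. The 5 fat cell markers with a row summed to 0.259 to 1.75 RPKM in JH and 0.883 to 2.57 RPKM in LD, with LEP and CIDEA at 0 in all libraries and ADIPOQ above 0 only in LD3. The 7 stellate cell markers, of cells that also hold droplets, summed to 28.7 to 32.7 RPKM in JH and 60.9 to 136 RPKM in LD. All 7 were tested and had log2 fold changes below 0. Of these, 2 were called lower in JH, beside 1.36% of all genes tested. They were LRAT (log2 fold change -1.72, adjusted p = 0.0384 from limma) and COL1A1 (-2.77, adjusted p = 0.0144). With voom PDGFRB was called as well (-1.54, adjusted p = 0.0428). The 5 bile duct markers summed to 3.79 to 6.84 RPKM in JH and 12.1 to 25.0 RPKM in LD, with KRT7 at 0. All 3 that were tested had log2 fold changes below 0. Of these, 1 was called lower in JH, EPCAM (-1.55, adjusted p = 0.0301 from limma), beside 1.36% of all genes tested. The 7 endothelial markers summed to 172 to 283 RPKM in JH and 222 to 279 RPKM in LD, mostly CLEC4G, and these sums overlapped, but all 7 had log2 fold changes below 0. PECAM1 (15.2 to 16.1 RPKM in JH and 25.7 to 30.1 RPKM in LD), KDR (8.56 to 11.1 RPKM and 17.99 to 19.4 RPKM) and VWF were lower in every JH pig. By limma on RPKM or by voom 0 of the 7 were called (2 at an unadjusted p under 0.05 on RPKM, beside 17.9% of all genes tested). The 7 hepatocyte markers summed to 50689 to 69711 RPKM in JH and 63294 to 75773 RPKM in LD, mostly ALB and APOA1, and these sums also overlapped. The ranges of 4 of the 7 markers did not overlap, beside 23.4% of all genes tested. ALB (log2 fold change -0.67, limma adjusted p = 0.258), SERPINA1 (-0.80, adjusted p = 0.169) and CPS1 (-0.40, adjusted p = 0.4) were lower and APOA1 (0.90, adjusted p = 0.203) was higher in every JH pig. On RPKM 0 of the 7 were called (3 at an unadjusted p under 0.05, beside 17.9% of all genes tested), and by voom 0 of the 4 with recovered reads. Macrophage markers summed to 839 to 1850 RPKM in JH and 1111 to 1247 RPKM in LD, with CD163 at 0 in all libraries. Of 6 tested, 0 were called on RPKM or by voom, and 4 had log2 fold changes above 0. At an unadjusted p under 0.05, 2 were higher and 1 was lower in JH, beside 17.9% of all genes tested in either direction. C1QB (1.76, adjusted p = 0.234 from limma) and CSF1R (1.23, adjusted p = 0.251) were the higher ones. CD5L (-0.65, adjusted p = 0.179) was lower in every JH pig. Some of these markers were thus lower in every JH pig, as HSD17B13 was. This held for 3 of 7 stellate, 3 of 3 bile duct, 3 of 7 endothelial, 3 of 7 hepatocyte and 1 of 6 macrophage markers tested. The share over all genes tested was 12.5%. The part of these markers in the HSD17B13 result was not tested. The enterocyte markers summed to 10.7 to 15.1 RPKM in JH and 3.69 to 9.34 RPKM in LD, mostly VIL1, with SI at 0 in all libraries and FABP2 above 0 only in LD3. CDX2, an intestinal transcription factor, was called higher in JH (2.86, adjusted p = 0.0463), on 12 to 17 reads in JH and 0 to 2 reads in LD. It was 1 of 2 enterocyte markers tested, beside 1.02% of all genes tested called higher in JH. The part of the enterocyte markers in the values of CIDEB, which intestine also uses, was not tested. The pancreatic markers summed to at most 0.878 RPKM.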

How the data were processed

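Liver mRNA of 3 JH and 3 LD pigs was sequenced, and groups and replicates follow the sample titles. The authors aligned filtered reads with TopHat2 2.0.13, used gfold for read numbers, and deposited RPKM values per library. They tested read numbers with DEGseq. Here limma 3.58.1 (R 4.3.3) was fitted to log2(RPKM + 0.1), with a trended prior, over genes reaching 0.5 RPKM in 3 or more libraries. Benjamini-Hochberg adjustment ran over all these genes, and single genes also had exact permutation tests (two-sided). The labels name no origin of the pigs beyond breed. The limma p-values set the difference between breeds against the spread between these samples, moderated by the spread of all genes tested. The miRNA files were not used here.

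The 10 genes, the lists and the tests were chosen with earlier results of these data known. Beside the 10 genes, the text names those called in each list and the extremes of the pathway lists, and says where others were chosen after their values were seen. Whole reads were recovered for 17250 of 19614 genes (87.9%) from the steps between RPKM values. They carry counting error and also the spread between pigs. Alternatives were pseudocounts of 1 and 0.01, other filters, quantile and median scaling, no trend, no fold change limit, a replicate block, each library left out and, added after the values were seen, voom on recovered reads. Plots used matplotlib 3.10.9 in Python 3.11.15.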

Additional observations from a re-analysis of the deposited data

How the results depend on the processing

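Of 120 values of the 8 genes under the alternatives, 112 kept their direction and their side of the limits, 6 passed the limits and 2 changed sign. Without JH1 the log2 fold change of PNPLA2 was -0.246 and that of DGAT2 -0.258, neither of them called. Under quantile normalization HSD17B13 was called (-2.42, adjusted p = 0.0383 from limma), the 1 gene of the 8 called there, and with voom on recovered reads it was likewise the 1 gene called (-2.23). Over all genes, 398 of 12993 were called under quantile normalization and 407 of 12957 with voom. With each library left out, 0 to 3 of the 8 genes were called, with 3 without JH3 and 1 without JH2. Over all genes, 403 of 12739 were called without JH3 and 145 of 12719 without JH2. With each library left out, the log2 fold changes ranged from -2.79 to -1.52 for HSD17B13, 0.912 to 2.87 for PLIN2, 1.16 to 2.05 for PLIN5, 0.858 to 1.33 for CIDEB, 0.405 to 1.06 for CIDEC, -0.246 to 0.723 for PNPLA2, -1.14 to -0.26 for DGAT1 and -0.258 to 0.421 for DGAT2. Without JH3 the median log2 fold change of all genes also moved, from 0.04 to 0.15. The cause was not tested. For G0S2 the call was lost without a trend (adjusted p = 0.0751), without a filter on low values (0.0733) and with a pseudocount of 0.01 (0.0568).

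Over all genes 310 were called, 200 without a filter, 199 with a pseudocount of 0.01, and 63 to 403 with each library left out (157 without JH1, 145 without JH2, 63 without LD1, 84 without LD2 and 116 without LD3). With the replicate block 253 genes were called, 0 of them among the 8, against 1.95% of all genes, G0S2, COL1A1 and EPCAM were still called, and LRAT and CDX2 were not (adjusted p of 0.064 and 0.0704 in limma). The bile duct marker KRT19, not called in the main fit (adjusted p = 0.0716 from limma), was called with the block (adjusted p = 0.0208). Same-numbered libraries correlated in their deviations with r of -0.016, 0.052 and 0.177 across genes, so the numbers were not taken to pair the pigs.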

Other observations

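Relatives of the droplet genes in the same families were read after the values above had been seen, without a further test of the family. Of 11 other HSD17B genes with a row, 10 were tested in limma, none was called and 2 differed at an unadjusted p under 0.05, beside 17.9% of all genes tested. HSD17B2, which inactivates oestradiol and testosterone, was at 38.8, 2.87 and 5.57 RPKM in JH1, JH2 and JH3, against 45.4, 48.0 and 69.3 RPKM in LD1, LD2 and LD3. All JH pigs were below all LD pigs, although JH1 came close, and the log2 fold change was -2.62 (adjusted p = 0.126 from limma). HSD17B10, a mitochondrial member, was at 881, 482 and 380 RPKM in JH1, JH2 and JH3 and at 293, 340 and 249 RPKM in LD1, LD2 and LD3 (0.90, adjusted p = 0.198). HSD17B14 lay lower in every JH pig (117 to 148 RPKM in JH, 164 to 209 RPKM in LD), with -0.43 (adjusted p = 0.381). Of 4 other PNPLA genes, 3 were tested and none was called, with log2 fold changes of 0.33 for PNPLA4, -0.18 for PNPLA6 and 0.22 for PNPLA8.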
